A study of Mus musculus with 6 samples.

Results

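Immunoglobulin Fc receptors, TREM and PILR receptors, their signalling adaptors and the kinase they recruit were followed in mouse kidney cells in culture, which the labels call primary renal fibroblasts. The family was defined by name as 10 genes of the 22274 in the deposited table: the adaptors Tyrobp and Fcer1g, the kinase Syk, the IgG receptors Fcgr1, Fcgr2b, Fcgr3 and Fcgr4, and the receptors Trem1, Trem2 and Pilra. The deposited symbol column held 9 of these names on 11 rows. Fcgr2b was listed there as Fcgr2 and was found by its gene identifier, ENSMUSG00000026656. Of the 3 rows that carried the symbol Trem1, 1 was Trem1 itself (ENSMUSG00000042265). The other two belong to A530064D06Rik and 9830107B12Rik in the GENCODE M21 annotation, held 2 and 0 counts over all libraries, and were left out. The genes were chosen with their changes between the groups already known, so their differences are given as a description, without p-values, and the counts of calls among them support nothing.

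Of the 6 libraries, 3 came from cells labelled WT in genotype that had received scrambled control siRNA, and 3 from cells that had received siRNA against Prune2, labelled as a knockdown. Both groups share a 48 h exposure to TGF-β (5 ng/ml) in medium with 10% serum, and no group without TGF-β enters the comparison. Whether replicates came from separate cultures or isolations is not stated in the labels, so the p-values reflect library-to-library spread only, and that spread may be technical. Library totals ran from 20075265 to 23234797 counts. Prune2 itself stood at 133, 157 and 150 counts in control libraries and at 80, 73 and 104 with Prune2 siRNA, which is a partial depletion (log2 fold change -0.87, SE 0.15, edgeR quasi-likelihood adjusted p = 0.000214). The depletion was smaller in the deposited FPKM, which is also scaled by gene length. Its mean was 1.18 with control siRNA and 0.847 with Prune2 siRNA, and the authors' log2 fold change was -0.479. The fibroblast label was checked against markers: Vim and Col1a1 were at 569.8 and 236.1 CPM (counts scaled to library size) in control libraries, while Dcn and Lum, which mark many stromal fibroblasts, were at 0.281 and 0.0435 CPM. The epithelial keratin gene Krt8 was at 2420 CPM and the kidney cadherin gene Cdh16 at 312 CPM in the same libraries. Both marker lists were mixed. Other fibroblast markers ran from Acta2 at 714.6 CPM, with Pdpn at 38.9 CPM, down to Thy1 at 0.594 CPM. Other tubular epithelial markers ran from Krt18 at 1286 CPM down to Slc12a1 at 0.408 CPM and Aqp2 at 0.

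Fc receptors bind the constant part of antibodies and let phagocytes take up coated particles. Most activating Fc receptors and TREM receptors have no signalling motif of their own and depend on a small membrane adaptor, Fcer1g or Tyrobp (also called DAP12), whose tail carries an immunoreceptor tyrosine-based activation motif (ITAM). Once its tyrosines are phosphorylated by Src family kinases, the ITAM docks Syk, while receptors with an inhibitory motif (ITIM), such as Fcgr2b and Pilra, recruit phosphatases instead. In the kidney these genes are known mainly from macrophages and other myeloid cells, and Syk is also found in several non-blood cell types.

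The signalling motifs are shown first because they divide the family into activating adaptors and inhibitory receptors. They were read as coding DNA from the GENCODE M21 transcripts, 5′ to 3′, with the codons of the defining tyrosine and aliphatic residues in capitals. The Tyrobp ITAM lies at codons 92 to 106 of 114 (GRCm38 chr7:30415670-30417382, plus strand, across an intron). The Fcer1g ITAM lies at codons 65 to 79 of 86 (chr1:171229889-171230072, minus strand, across an intron). The ITIM of Fcgr2b lies at codons 317 to 322 of 340 (chr1:170961071-170961088, minus strand) and that of Pilra at codons 265 to 270 of 302 (chr5:137823571-137823588, minus strand), each within an exon.
Tyrobp ITAM: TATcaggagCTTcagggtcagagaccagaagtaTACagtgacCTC
Fcer1g ITAM: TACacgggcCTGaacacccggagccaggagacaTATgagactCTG
Fcgr2b ITIM: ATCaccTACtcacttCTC
Pilra ITIM: ATCgtgTATgcttccATC
Both ITAMs span 45 bases, with the tyrosine codons at the same places in each, and both ITIMs span 18 bases.

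With Prune2 siRNA the whole family stood lower, in every library. In all 10 genes the highest Prune2 siRNA library was below the lowest control library, where 12.4% of all 13248 tested genes were separated in that direction and 24.3% in either direction. The low-count filter passed 9 of the 10 and left out Trem2. All 9 were called lower and 0 higher, where 5.83% of all tested genes were called lower and 4.46% higher. Since the genes were chosen with this contrast known, nothing is read from those counts. The log2 fold changes ran from -3.62 to -0.70 with a median of -2.80, where the median over all tested genes was 0.00. Fold changes below -2 on the log2 scale were found in 7 of the 9, against 1.15% of tested genes. In bulk libraries such as these, fewer cells of a type and less RNA per cell cannot be told apart.

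**Figure D1:**
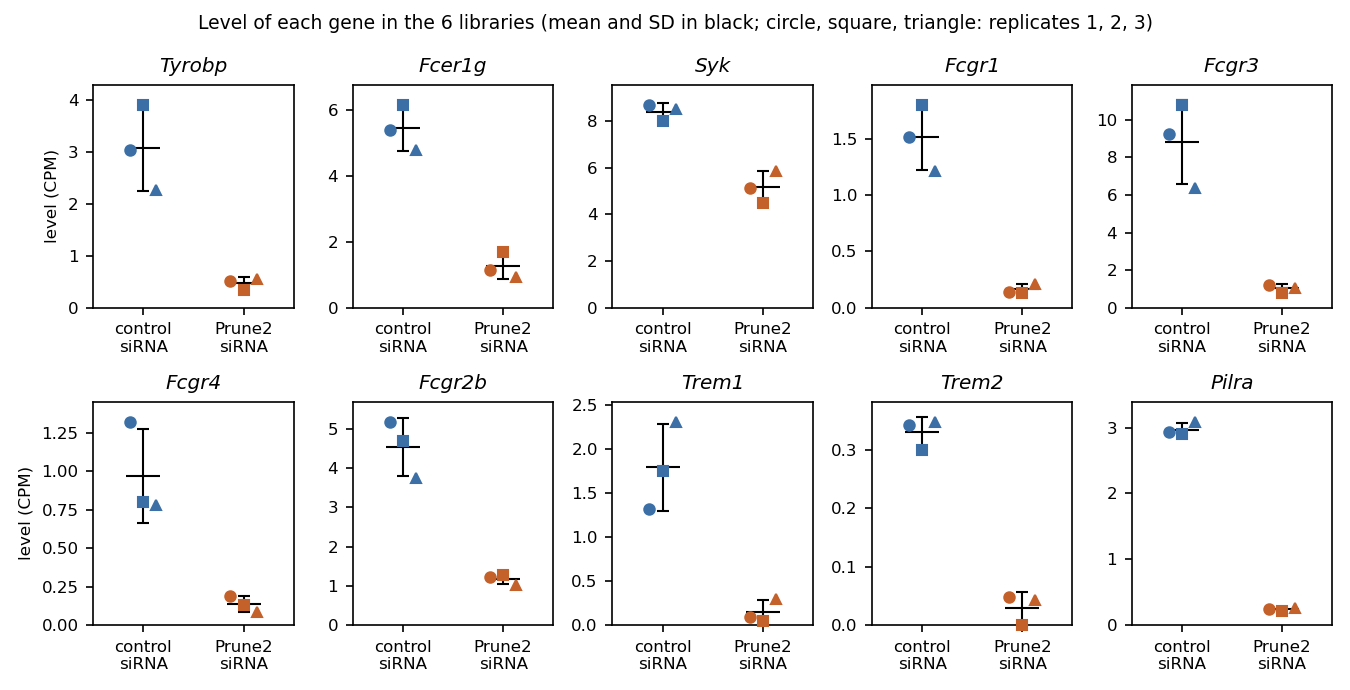
Level of each of the 10 genes in CPM (y axis, from 0) in the control siRNA (blue) and Prune2 siRNA (orange) libraries, with replicates 1, 2 and 3 as circle, square and triangle and the group mean and SD (n = 3) in black. The groups are apart in every panel, and Syk keeps the largest part of its control level, at 61.5%.

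Tyrobp, the adaptor of Trem1, Trem2 and several lectin receptors, was low in absolute terms. Its level was 3.03, 3.90 and 2.26 CPM in control replicates 1, 2 and 3 and 0.519, 0.349 and 0.555 CPM after Prune2 siRNA. The control libraries thus varied among themselves, with replicate 2 highest and replicate 3 lowest, but none came near the Prune2 siRNA range. The log2 fold change was -2.67 (SE 0.30), which leaves 15.5% of the control mean. Tyrobp (ENSMUSG00000030579) is on chromosome 7 from 30413760 to 30417585 of GRCm38, plus strand. Its neighbour Hcst, which encodes the related adaptor DAP10, lies 0.126 kb away and had 1 count in the 3 control libraries together and 0 with Prune2 siRNA.

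Fcer1g, the common γ chain that carries Fcgr1, Fcgr3 and Fcgr4 to the surface, kept more of its level than Tyrobp. It stood at 5.37, 6.15 and 4.78 CPM in control libraries and at 1.13, 1.70 and 0.940 CPM with Prune2 siRNA. Here Prune2 siRNA replicate 2 was the highest of its group, whereas it was the lowest for Tyrobp. The log2 fold change was -2.10 (SE 0.21), with 23.2% of the control mean left. Fcer1g lies on chromosome 1 from 171229572 to 171234365, minus strand. Its count per count of Tyrobp was 1.77, 1.58 and 2.12 with control siRNA and 2.18, 4.88 and 1.69 with Prune2 siRNA, ranges that overlap.

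Syk, the tyrosine kinase that docks on both adaptors, was the member that differed least. Its level was 8.69, 8.0 and 8.52 CPM in control libraries and 5.14, 4.49 and 5.85 CPM with Prune2 siRNA. Control libraries sat within 1 CPM of each other, and the Prune2 siRNA libraries were all lower. The log2 fold change was -0.70 (SE 0.13), which leaves 61.5% of the control mean, while the other nine kept at most 25.8%. Syk (chromosome 13, 52583173 to 52648792, plus strand) was also the member whose call depended on the unit: with limma on log2(FPKM + 1) it was not called, and its log2 difference was -0.35. Relative to its adaptor Syk stood higher with Prune2 siRNA, at 2.87, 2.05 and 3.77 counts per count of Tyrobp in control libraries and 9.91, 12.9 and 10.5 after Prune2 siRNA.

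The 3 activating IgG receptors kept between 10.7% and 14.0% of their control means. Fcgr3, the low-affinity receptor of macrophages and natural killer cells, was at 9.23, 10.8 and 6.39 CPM in control libraries and at 1.23, 0.785 and 1.07 CPM with Prune2 siRNA. Its control libraries spread most in CPM of the 10 genes (SD 2.24), again with replicate 2 highest and replicate 3 lowest. Its log2 fold change was -3.09 (SE 0.22), with 11.7% of the control mean left. Fcgr1, the high-affinity IgG receptor, went from 1.51, 1.80 and 1.22 CPM to 0.142, 0.131 and 0.214 CPM (log2 fold change -3.16, SE 0.41). Its highest Prune2 siRNA library was far below its lowest control library, and 10.7% of the control mean was left. Fcgr4, a receptor for particular IgG subclasses, went from 1.32, 0.800 and 0.782 CPM to 0.189, 0.131 and 0.0854 CPM (log2 fold change -2.80, SE 0.49). Control replicate 1 was the high library for Fcgr4, its standard error was the widest of the 9, and it had 61 summed counts in control libraries and 9 with Prune2 siRNA.

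Fcgr2b, the inhibitory IgG receptor, kept the most after Syk. Its level was 5.18, 4.70 and 3.74 CPM in control libraries and 1.23, 1.27 and 1.03 CPM with Prune2 siRNA. The 3 Prune2 siRNA libraries lay close together, and all were below the control libraries. The log2 fold change was -1.94 (SE 0.22), with 25.8% of the control mean left. From summed counts, the control-to-Prune2 siRNA ratio was 3.85 for Fcgr2b (exact 95% counting interval 2.99 to 5.00) and 8.51 for Fcgr3 (6.61 to 11.1), intervals that cover counting error only.

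The balance of activating to inhibitory IgG receptor transcripts was lower with Prune2 siRNA. Counts of Fcgr3 per count of Fcgr2b were 1.78, 2.30 and 1.71 in control libraries and 1.00, 0.621 and 1.04 with Prune2 siRNA. With Fcgr1 and Fcgr4 added to Fcgr3, the ratio was 2.48 ± 0.328 (SD, n = 3) in control libraries and 1.14 ± 0.275 (SD, n = 3) with Prune2 siRNA, and the groups did not overlap. The same 3 activating receptors per count of their chain Fcer1g went from 2.06 ± 0.266 to 1.15 ± 0.463 (SD, n = 3). Fcgr2b and Fcgr3 share sequence: 166 of the 1733 different 50-base words in Fcgr3 transcripts (9.58%) also occur in Fcgr2b transcripts. How reads from such stretches were assigned is not given in the sources used here, and their part in the ratio was not tested.

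**Figure D2:**
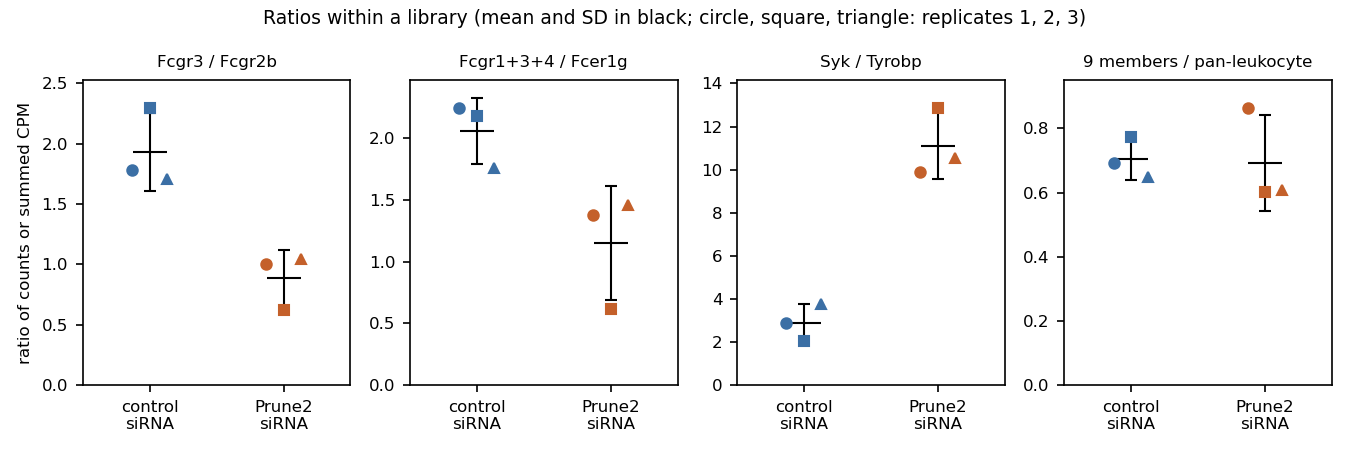
Ratios of CPM within each library (y axes, from 0) for Fcgr3 over Fcgr2b, the 3 activating receptors over Fcer1g, Syk over Tyrobp, and the 9 genes without Syk over 8 pan-leukocyte markers, with mean and SD (n = 3) in black. The groups are apart in the first 3 panels and overlap in the last, at 0.704 and 0.691 on average.

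Trem1, a receptor that amplifies inflammatory responses of neutrophils and monocytes, was low in every Prune2 siRNA library. It was at 1.32, 1.75 and 2.30 CPM in control replicates 1, 2 and 3 and at 0.0944, 0.0436 and 0.299 CPM after Prune2 siRNA. Replicate 3 was the highest in each group, as it was for Pilra, while for Tyrobp, Fcgr1 and Fcgr3 control replicate 3 was the lowest control library. The log2 fold change of Trem1 was -3.56 (SE 0.45), and it was -4.61 without Prune2 siRNA replicate 3, which holds 7 of the 10 counts left in that group. Trem1 lies on chromosome 17 from 48232768 to 48246924, plus strand, in a cluster with Trem2, Trem3, Treml1, Treml2 and Treml4.

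Trem2, a lipid-sensing receptor of tissue macrophages and microglia, was the member with the fewest reads. Its counts were 7, 6 and 8 in control libraries and 1, 0 and 1 with Prune2 siRNA. The 0 in Prune2 siRNA replicate 2 allows up to 0.131 CPM, below the 0.300 CPM of the lowest control library. The ratio of summed counts was 11.2, with an exact 95% counting interval of 2.73 to 98.2. When genes were not filtered on low counts, Trem2 was tested and all 10 members were called lower. The authors' deposited table lists a log2 fold change of -3.51 for it.

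Pilra, the inhibitory member of the paired PILR receptors, was, with Trem1, one of the genes that kept the least of their control level. It stood at 2.93, 2.90 and 3.09 CPM in control libraries and at 0.236, 0.218 and 0.256 CPM with Prune2 siRNA. Replicates were tight in both groups, with SDs of 0.0996 and 0.0191 CPM. The log2 fold change was -3.62 (SE 0.32), with 7.97% of the control mean left. Pilra (chromosome 5, 137821952 to 137836281, minus strand) shares 468 exon bases with Zcwpw1 on the opposite strand, and whether counting used strand is not given in the sources used here. Zcwpw1 was at 2.18 and 1.71 CPM on average and was not called (adjusted p = 0.439, edgeR). Fcgr2b likewise shares 155 exon bases with the antisense transcript Gm38204.

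Levels of different genes were compared per length, in FPKM, the fragment count scaled by gene length and library size, as the authors deposited it. In control libraries Fcer1g led with 8.03 ± 1.01 FPKM, followed by Fcgr3 with 6.53 ± 1.65 and Tyrobp with 5.20 ± 1.44 (SD, n = 3), and the ranges of neighbours in that order overlapped. Next came Fcgr2b (2.57 ± 0.494 FPKM), Syk (1.72 ± 0.166 FPKM) and Pilra (1.26 ± 0.0794 FPKM), each separated from its neighbours above. Fcgr1, Fcgr4 and Trem1, at 0.967, 0.763 and 0.597 FPKM, each overlapped with the gene above, and Trem2 was lowest at 0.303 FPKM, separated from Trem1. Between groups, FPKM and CPM gave nearly the same remaining share for most of the genes. For Fcgr1 they did not: 6.21% of the control mean was left in FPKM and 10.7% in CPM, and dividing its counts by its FPKM implied a mean length of 1630 bases for control siRNA against 2714 for Prune2 siRNA. The authors' deposited table accordingly lists -4.01 as the log2 fold change of Fcgr1.

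The 5 members on chromosome 1 and chromosome 17 that lie in receptor clusters allow a look at neighbouring genes. Fcgr2b, Fcgr4 and Fcgr3 follow each other from 170958617 to 171064935 on chromosome 1, with gaps of 42.4 and 21.4 kb. Flanking them, Fcrlb and Cfap126 were not called, nor was Sdhc, a subunit of succinate dehydrogenase (57.0 and 58.4 CPM, log2 fold change 0.03, SE 0.05). Over the pair of nearest protein-coding genes on each side of every member, 32 different genes were no member themselves and 16 of them were tested. Of the 16, 3 were called, all lower, where 5.83% of all tested genes were called lower. These were Pilrb1 and Pilrb2, the activating partners of Pilra, and Adamts4, an aggrecanase gene near Fcer1g (log2 fold change -0.24, SE 0.07, adjusted p = 0.0311, edgeR). Pilrb1 and Pilrb2 averaged 0.132 and 0.190 CPM with Prune2 siRNA. Genes this low can pass the low-count filter on the control libraries alone, so nothing is read from the count. Trem3 and Treml1 had 0 counts in all libraries, so within the TREM cluster Trem1 had by far the most reads.

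Promoter windows from the RefSeq table (GRCm38.p6, 250 bases before to 50 after the annotated start) were matched for 9 members, as 11 windows. Because the genes stood lower together, the windows were searched on both strands for GAGGAA, the core letters of sites of PU.1-type ETS factors, which read TTCCTC on the other strand. The letters occurred in 8 of the 11 windows, from 7 genes (Fcgr1, Fcgr3, Fcgr4, Pilra, Syk, Trem1 and Trem2), against 28.3% of all 32851 windows in the table. The 2 windows of Fcgr3 overlap and hold the same TTCCTC, which is thus counted in both. The genes were also chosen with their changes known, so nothing is read from this difference. Of the other letters searched on both strands, the GAS motif TTCNNNGAA was in 2 of the 11 windows (Fcgr1 and Trem1) and in 8.3% of all, while the C/EBP-like TTGCGCAA (0.183% of all) and the TATA box TATAAA (13.6% of all) were in 0. The longer form GAGGAAGT, which contains the core, was found in the window of Fcgr4 and in 3.2% of all windows. In 4 genes TTCCTC stood close before the start: 55 bases before it in Fcgr1, 6 in Fcgr3, 22 in Fcgr4 and 40 in Trem2. The windows of Fcgr2b and Fcer1g hold no GAGGAA. Windows of the 4 genes with TTCCTC are printed 5′ to 3′ on the gene's strand, with these letters in capitals. The windows are chr3:96293920-96294219 (minus) for Fcgr1, chr1:171059354-171059653 (minus) for Fcgr3, chr1:171018676-171018975 (plus) for Fcgr4 and chr17:48346151-48346450 (plus) for Trem2.
Fcgr1 promoter: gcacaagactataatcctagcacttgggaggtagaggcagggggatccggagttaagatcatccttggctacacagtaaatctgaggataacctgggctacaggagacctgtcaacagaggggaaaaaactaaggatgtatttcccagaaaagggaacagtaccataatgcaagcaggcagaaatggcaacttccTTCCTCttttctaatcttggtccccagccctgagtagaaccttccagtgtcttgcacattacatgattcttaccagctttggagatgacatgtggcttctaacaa
Fcgr3 promoter: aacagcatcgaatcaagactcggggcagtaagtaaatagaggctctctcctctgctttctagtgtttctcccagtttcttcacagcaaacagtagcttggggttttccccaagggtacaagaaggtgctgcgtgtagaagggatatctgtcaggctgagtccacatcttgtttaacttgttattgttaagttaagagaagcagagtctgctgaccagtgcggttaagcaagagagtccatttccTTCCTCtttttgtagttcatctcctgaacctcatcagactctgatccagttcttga
Fcgr4 promoter: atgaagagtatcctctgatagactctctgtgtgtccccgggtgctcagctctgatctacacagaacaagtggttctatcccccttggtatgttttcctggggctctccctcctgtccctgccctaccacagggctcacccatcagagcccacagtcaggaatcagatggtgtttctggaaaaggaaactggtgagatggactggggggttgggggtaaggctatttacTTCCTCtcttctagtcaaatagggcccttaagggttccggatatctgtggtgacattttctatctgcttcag
Trem2 promoter: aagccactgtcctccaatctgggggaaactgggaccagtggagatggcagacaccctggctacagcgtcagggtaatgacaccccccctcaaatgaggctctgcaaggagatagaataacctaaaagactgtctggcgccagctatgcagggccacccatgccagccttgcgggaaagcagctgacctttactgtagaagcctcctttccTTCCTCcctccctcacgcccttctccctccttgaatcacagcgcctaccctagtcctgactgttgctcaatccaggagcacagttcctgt
A match of letters is a description and not evidence of a bound site.

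The wider pathway was covered by lists written by role, with the family's results known. Of 79 tested genes that are not family members, 36 were called lower, 2 higher and 41 were not called (edgeR quasi-likelihood test), where 10.3% of all tested genes were called. Their median log2 fold change was -0.32.

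The tested receptors nearest to the family were lower. Of 17 other activating receptors, most of which are known to pair with Tyrobp or Fcer1g, 5 were tested. All 5 fell, with a median of -2.78, where 5.83% of all tested genes were called lower. The low-count filter can be passed on the control libraries alone. A gene that passes this way and is low with Prune2 siRNA can hardly be other than lower, so nothing is read from the count. Clec5a, a Tyrobp-coupled lectin, fell from a mean of 5.15 ± 1.02 CPM to one of 0.565 ± 0.149 CPM (SD, n = 3; log2 fold change -3.17, SE 0.26, edgeR adjusted p = 1.52e-09). Clec7a (dectin-1), the β-glucan receptor with an ITAM-like motif of its own, went from 7.55 ± 0.830 to 1.68 ± 0.239 CPM (SD, n = 3; edgeR adjusted p = 1.09e-09), and Clec4n (dectin-2), which uses Fcer1g, fell by 2.79 on the log2 scale. Both tested TREM and PILR relatives fell: Pilrb1 by 2.12 and Pilrb2 by 2.09 on the log2 scale. They averaged 0.132 and 0.190 CPM with Prune2 siRNA, so the same limit applies to them. Pilra shares 4.4% of its 50-base words with Pilrb1 and 3.83% with Pilrb2, and how reads from those stretches were assigned is not given in the sources used here.

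Tested inhibitory receptors with an ITIM were lower, as the activating ones were. Of 12 tested, 11 fell and 0 rose, with a median of -2.35, where 5.83% of all tested genes were called lower. Several were low with Prune2 siRNA, such as Cd72 and Lair1 at 0.233 and 0.240 CPM on average. Such genes can pass the low-count filter on the control libraries alone, so nothing is read from the count. Cd72 (log2 fold change -3.43), Lair1 (-3.37) and Cd33 (-2.28) had the smallest adjusted p-values (9.8e-08, 1.03e-07 and 2.81e-06, edgeR). The exception was Lilrb4a (log2 fold change -1.93, edgeR adjusted p = 0.0782). It had no reads in replicate 1 of either group, and its call came in 3 of 14 alternatives, one of them without control replicate 1.

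Other Fc receptors were mostly too low to test. Of 13 listed, 3 were tested: Trim21 rose, and 2 were not called. Fcgrt, the neonatal Fc receptor of endothelium and epithelium, was at 32.5 ± 0.679 and 30.6 ± 4.59 CPM (SD, n = 3; adjusted p = 0.59, edgeR), and Fcrlb was at 0.456 and 0.418 CPM. Trim21, a cytosolic antibody receptor and interferon-induced ubiquitin ligase, rose from a mean of 6.72 ± 0.981 CPM to one of 8.82 ± 0.214 CPM (SD, n = 3; log2 fold change 0.40, adjusted p = 0.0343, edgeR). That call did not hold without control replicate 1 or 3 or without any of the 3 Prune2 siRNA libraries (adjusted p from 0.0577 to 0.196), and the adjusted p of Trim21 was 0.0867 with DESeq2. The IgE receptor chain Fcer1a had 0 counts in every library.

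Src and Yes1, widely expressed kinases of the family that acts upstream of Syk, were not called. They had log2 fold changes of -0.04 (adjusted p = 0.628) and 0.03 (adjusted p = 0.842, edgeR).

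Downstream of Syk, 12 of 29 tested adaptors and effectors fell, 1 rose and 16 were not called. Over all tested genes, 5.83% were called lower and 4.46% higher. The haematopoietic adaptors Lcp2 (SLP-76, log2 fold change -2.72) and Fyb (-3.12) fell, as did Rac2 (-2.77), the blood-cell form of the Rac GTPase. Lcp2, Fyb and Rac2 averaged 0.531, 0.323 and 0.549 CPM with Prune2 siRNA. Genes this low can pass the low-count filter on the control libraries alone, so nothing is read from the count. Rac1, its widely expressed relative, stood at 326 and 324.2 CPM and was not called. Blnk, an adaptor that links Syk to phospholipase C, was the member that rose, from a mean of 14.9 ± 1.09 CPM to one of 20.2 ± 2.52 CPM (SD, n = 3; log2 fold change 0.44, SE 0.09, edgeR adjusted p = 0.00117). Ptk2b missed the threshold (log2 fold change -0.12, adjusted p = 0.0615, edgeR), and passed it in 4 of 15 alternatives, one of them without control replicate 2.

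Most tested genes listed as phosphatases and ubiquitin ligases, or as ligands and sheddases, were not called. Of 15 tested genes listed as phosphatases and ubiquitin ligases, 4 fell and 0 rose, where 5.83% of all tested genes were called lower. Among the 4 were Ptprc (CD45, -2.23), Inpp5d (SHIP-1, the lipid phosphatase that ITIMs of Fcgr2b recruit, -1.76) and Sla (-1.08). The call of Inpp5d was not made in either FPKM fit (limma, log2 differences of -0.59 and -1.10, adjusted p = 0.108 and 0.115). Ptpn11 and Cbl were at -0.04 each on the log2 scale and were not called. Of 7 tested ligand and sheddase genes, Apoe, which encodes a Trem2 ligand, fell from a mean of 18.4 ± 0.673 CPM to one of 4.50 ± 0.673 CPM (SD, n = 3; log2 fold change -2.02, SE 0.11, edgeR adjusted p = 8e-13). Clu, another ligand of Trem2, was at 10278 and 10766 CPM and was not called (adjusted p = 0.314, edgeR).

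**Figure D3:**
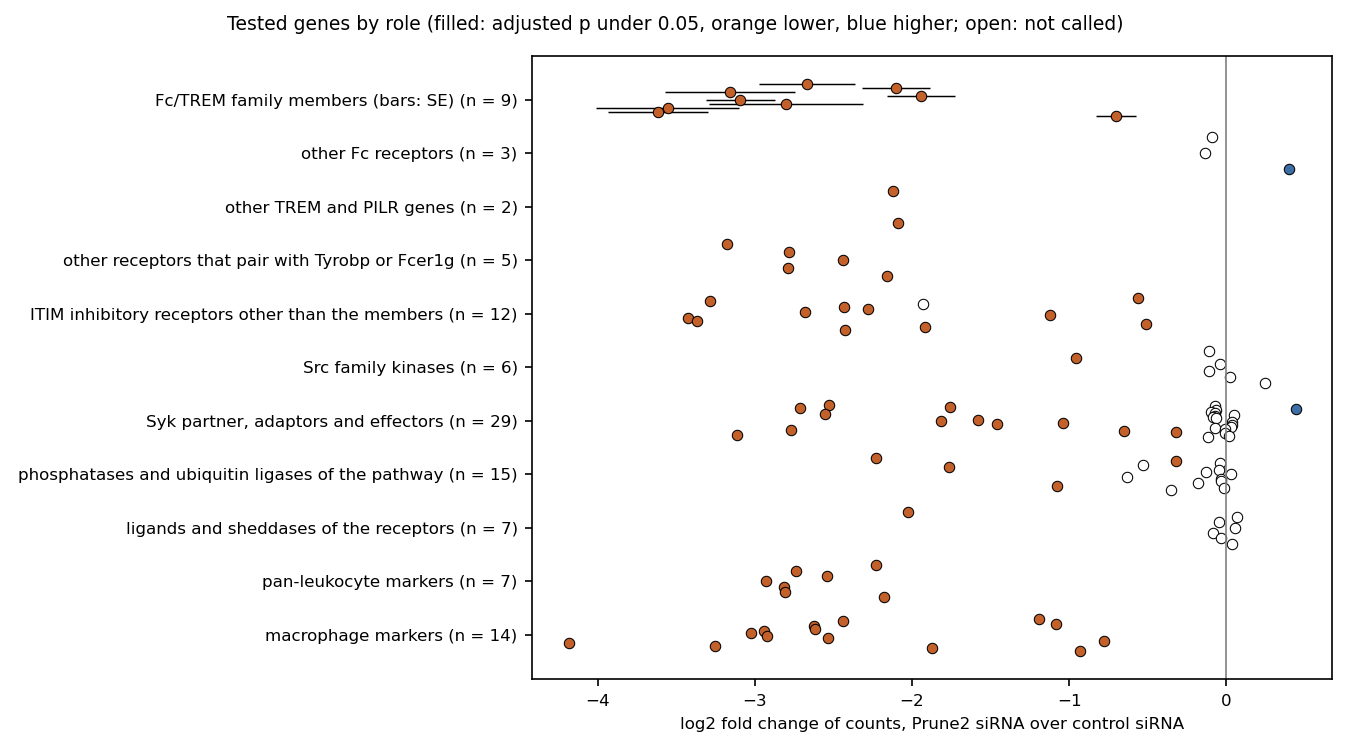
Log2 fold change of counts, Prune2 siRNA over control siRNA (x axis), for each tested gene in 11 groups by role (rows), with SE bars for the 9 tested members of the Fc and TREM family, orange for genes called lower, blue for called higher and white for not called. Receptors and leukocyte markers sit mostly left of -2, while most kinases, effectors, phosphatases and ligands sit near 0.

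Genes whose pattern over the 6 libraries was most like that of Tyrobp were found by the root mean square difference of log2(CPM + 0.5). Each gene was centred on its control mean, and the added 0.5 shrinks differences at low levels. Among 12375 other tested genes of at least 1 CPM on average, the 10 nearest included Dock2, Rac2, Tnfsf13b, Ccl24, C5ar1, Sash3, Wdfy4, Hk3 and Clec4n. Their differences ran from 0.150 for Dock2, a Rac activator of leukocytes, to 0.216 for Clec4n, in log2 units. Dock2 stood at 2.20, 2.80 and 2.17 CPM in control libraries and at 0.283, 0.218 and 0.256 CPM with Prune2 siRNA. Its likeness to Tyrobp follows from how it was picked.

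Leukocyte markers were lower along with the family in these libraries. Of 8 pan-leukocyte and 14 macrophage markers, 21 were tested and all 21 fell, where 5.83% of all tested genes were called lower. Their log2 fold changes ran from -4.19 to -0.78, with a median of -2.61. The markers were named after their values were seen, and the low-count filter can be passed on the control libraries alone. The count is therefore a description only. Macrophage markers summed to 138 to 178 CPM in control libraries and 37.0 to 42.0 CPM with Prune2 siRNA, and control replicate 3 was the lowest control library, as it was for 6 of the 10 family members. Pan-leukocyte markers summed to 38.5 to 43.8 CPM and to 5.57 to 7.68 CPM. Markers of other leukocytes were at or near 0: the sums over 10 neutrophil markers reached 0.391 CPM, those over 7 mast cell markers 0.750 CPM, those over 10 T and NK cell markers 0.739 CPM and those over 6 B cell markers 0.393 CPM. Among these, S100a9, Mpo, Elane, Cpa3, Cma1, Cd3e, Nkg7 and Ncr1 had 0 counts in every library. The 7 dendritic cell markers summed to 9.17 to 11.7 CPM in control libraries and 9.82 to 11.1 CPM with Prune2 siRNA, nearly all of it Zbtb46, which was not called. Other cell type markers differed as well, by less. Of 8 tested endothelial markers 6 fell (median -0.48), and their sums went from 123 to 134 CPM down to 92.1 to 94.3 CPM. Of 10 tested fibroblast markers 4 fell, Vim (-0.53), Acta2 (-0.29), Col1a1 (-0.21) and Col1a2 (-0.20). Of 9 tested tubular epithelial markers 3 fell and 2 rose, Cdh16 (0.28) and Slc12a3 (1.42).

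Set against the pan-leukocyte markers of the same library, the family without Syk was level between groups. The sum of the 9 genes was 0.691, 0.773 and 0.647 of the marker sum in control libraries and 0.864, 0.602 and 0.607 with Prune2 siRNA. Single genes departed from that level in both directions. Fcgr2b per marker CPM went from 0.108 ± 0.0106 to 0.175 ± 0.0417, and Pilra from 0.0716 ± 0.00744 to 0.0352 ± 0.00699 (SD, n = 3), and neither pair of groups overlapped. Syk per marker CPM went from 0.202 ± 0.0176 to 0.767 ± 0.171 (SD, n = 3). The choice of markers matters here, as the 9 genes per macrophage marker CPM went from 0.183 ± 0.00275 to 0.118 ± 0.0101 (SD, n = 3) without overlap. The part of cell content in the family's differences was not tested.

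**Figure D4:**
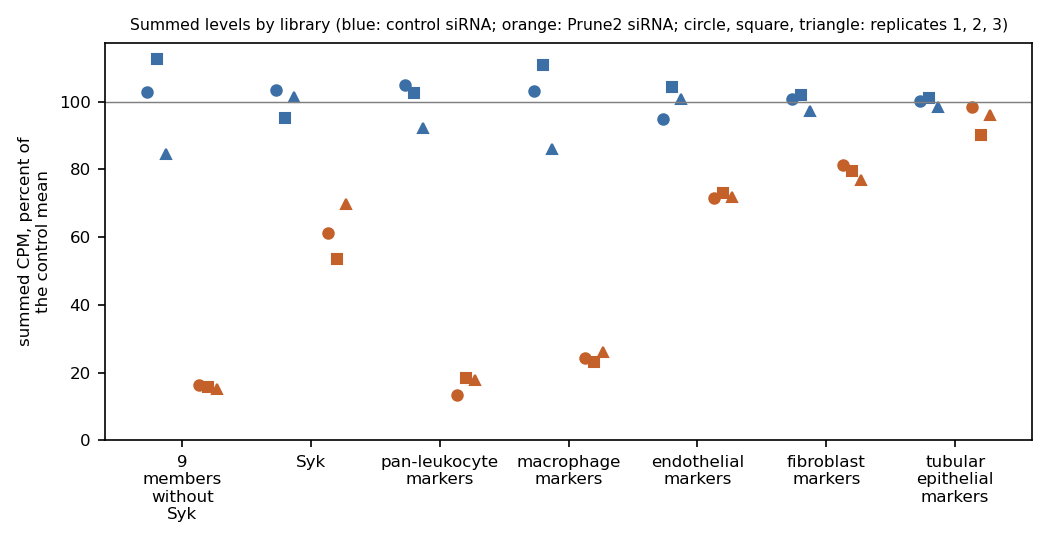
Summed CPM of the 9 family members without Syk, of Syk and of 5 marker lists in each library, as percent of the control mean (y axis, from 0), with control siRNA in blue, Prune2 siRNA in orange and replicates 1, 2 and 3 as circle, square and triangle. With Prune2 siRNA the 9 members stood at 15.3 to 16.4%, the pan-leukocyte markers at 13.4 to 18.4% and the macrophage markers at 23.0 to 26.1%. Syk stood at 53.5 to 69.6% and the endothelial markers at 71.4 to 73.1%.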

How the data were processed

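RNA-seq libraries were 3 with control siRNA and 3 with Prune2 siRNA. Groups and replicate numbers came from the sample titles. Per the file headers, the authors deposited a read count and an FPKM value for each gene and library, mean FPKM per group, a log2 fold change, and p-value columns. Builds GRCm38 and mm10 stand in the submitters' processing notes. Aligner, counter, strand handling and the authors' test were not given in the sources used here. Identifiers were matched to GENCODE M21 (GRCm38), and 22219 of 22274 were found.

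The main test was edgeR 4.0.16 under R 4.3.3 on the deposited counts (TMM scaling, filterByExpr, glmQLFit, glmQLFTest, Benjamini-Hochberg over 13248 genes, adjusted p under 0.05). CPM uses the TMM-scaled library sizes. The SE is the log2 fold change divided by the square root of F. Alternatives used DESeq2 1.42.0 and limma 3.58.1 (voom on counts, and log2(FPKM + 1) or log2(FPKM + 0.1)). On simulated counts for 13154 genes, 78% of genes changed 1.5-fold, 94% of genes changed 2-fold and 98% of genes changed 4-fold were recovered, with 11 of 195 calls false. Exact 95% intervals cover counting error only.

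The members and gene lists were chosen with earlier results of these data known. Named in the text are all members, Prune2, up to 3 called genes per direction and 2 abundant uncalled genes of each pathway list, the 10 genes nearest to Tyrobp, and neighbours by position. A few genes chosen this way are not reported here. Cell type markers were named after their values were seen. Alternatives were other scalings, filters, tests and units, a replicate block, and leaving out each library.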

Additional observations from a re-analysis of the deposited data

How the results depend on the processing

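The count of family members called lower was 9 of 9 tested in 11 of 15 alternatives, 10 of 10 without a low-count filter, 8 of 8 at 1 CPM or more in 3 libraries, and 8 of 9 with either FPKM fit, where Syk was not called. No member changed direction. The other pathway genes called ranged from 28 to 44 over the alternatives, against 38. Genes called over the whole table were 1364, against 772 with limma on log2(FPKM + 1) and 777 on log2(FPKM + 0.1), and 997 to 1249 when single libraries were left out. Titles give both groups replicate numbers 1 to 3. Over genes, deviations of same-numbered libraries had correlations of 0.05, -0.01 and 0.03, against -0.08 to 0.06 for differently numbered ones. Such values cannot exclude a shared batch or pairing that touches few genes, and the labels state no pairing. With the replicate block 1490 genes, the same 9 of 9 members and 39 pathway genes were called. Genes that were not called changed sign near 0: with single libraries left out, the log2 fold change ranged from -0.183 to 0.0261 for Fcgrt (positive without Prune2 siRNA replicate 2), from -0.741 to 0.36 for Fcrlb (0.158 without control replicate 1, 0.36 without Prune2 siRNA replicate 3), from -0.0331 to 0.0053 for Rac1 (positive without control replicate 3, and 0.00226 when Prune2 siRNA replicate 2 was left out) and from -0.00775 to 0.061 for Yes1 (lowest without control replicate 2, and -0.00732 when Prune2 siRNA replicate 2 was left out). Rac1 was at 0.00701 and 0.00706 in the FPKM fits. The cause was not tested. Depth limits Trem2, with 21 and 2 summed counts, and Fcgr4, with 61 and 9.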
